A study of Mus musculus with 8 samples.

Results

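The cytosolic ribosomal proteins are the protein components of the ribosome that translates nuclear mRNAs, and their genes were followed here in the slow soleus muscle of mice given the oral bacterium Porphyromonas gingivalis and of mice given saline. Members were chosen by name alone, as array probes named Rpsa, Rplp0, Rplp1, Rplp2, or Rps or Rpl with a number and at most a short suffix, without the Rps6k kinases and pseudogenes. The rule found 84 genes of 37008 names on the array, with 182 probes of 56605. Of the 84, 81 were measured well enough to be tested among 22221 genes, namely all 31 genes of the small 40S subunit, 42 of 43 genes of the large 60S subunit, all 3 genes of the stalk, and 5 of 7 paralogs. Rpl37, Rpl10l and Rpl39l did not pass the filter on dim probes. The single Rpl37 probe was well above background on 3 P. gingivalis arrays and 0 saline arrays, the Rpl39l probe on 1 P. gingivalis and 1 saline array, and the Rpl10l probe on 0 arrays.

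The P. gingivalis group held 4 soleus samples from male C57BL/6J mice given the bacterium, suspended in 100 µL of saline, through a feeding needle, and the saline group held 4 from mice given saline alone. All mice were 8 weeks old at the start, ate a high-fat diet, and were 14 weeks old when muscle was taken after 6 weeks of administration, so every difference below was measured in high-fat-fed mice. Total RNA from each sample was labelled with the dye Cy3 and hybridised to 1 Agilent mouse array. The labels list separate samples without stating that these were separate mice, and p-values therefore measure a spread between samples that may be technical.

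A ribosome is built from a 40S subunit, which reads the mRNA, and a 60S subunit, which joins amino acids, each a scaffold of ribosomal RNA coated with proteins present as a rule in 1 copy per ribosome. The P-stalk proteins Rplp0, Rplp1 and Rplp2 recruit elongation factors. Ribosomal protein mRNAs are abundant and are known for being controlled mainly in translation, through a run of C and T at their 5′ end, the terminal oligopyrimidine (TOP) tract, that responds to the growth kinase mTORC1. In striated muscle, Rpl3l is a paralog that takes the place of the core protein Rpl3.

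The annotated starts of 5 core genes with the tract and of 2 paralogs show what it looks like. The 7 are examples, and their differences of near or above 0 do not stand for all genes with the tract. The 13 tested genes with it differed by -0.052 to 0.16. Sequences are those of RefSeq on build GRCm38.p6, from 15 bases before the annotated start, written 5′ to 3′ on the gene's strand. Capitals mark a run of C and T that begins with C at the start itself.
Rps6, chr4:86857353-86857382, minus strand: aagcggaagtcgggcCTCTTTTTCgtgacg
Rps15a, chr7:118116133-118116162, minus strand: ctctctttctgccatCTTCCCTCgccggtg
Rps18, chr17:33955651-33955680, minus strand: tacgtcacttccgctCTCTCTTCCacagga
Rps27, chr3:90213634-90213663, minus strand: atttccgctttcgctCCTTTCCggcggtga
Rplp2, chr7:141447636-141447665, plus strand: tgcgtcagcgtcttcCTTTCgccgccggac
Rps27l, chr9:66946071-66946100, plus strand: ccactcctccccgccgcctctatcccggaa
Rpl3l, chr17:24727811-24727840, plus strand: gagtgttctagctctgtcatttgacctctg
In these examples the 5 core genes carry the run at the annotated start and the 2 paralogs do not. Most core genes also lack it, with 13 of 57 in the RefSeq table carrying it. Of the 63 members with a promoter in the RefSeq table, 13 (20.6%) had C at an annotated start followed by at least 4 bases that were C or T, searched on the gene's strand only. Among all 27025 genes of the table, 813 (3.01%) had it. A longer run of at least 7 was also counted where it began within 20 bases of the start, with a C that followed neither C nor T. Runs led by a T are therefore left out, even some at the start itself, as in Rpl28. The longer run was found in 25 members (39.7%) and in 4854 genes of the table (17.96%). The share was 40.4% of core genes and 33.3% of paralogs, Rps27l among them. No tract here means only that these letters are not at the annotated start, which can lie away from the start used in muscle.

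Values are log2 levels, the log2 of the processed Cy3 signal minus the log2 of the array's 75th percentile, so 0 is the 75th percentile of that array and a difference of 1 is a doubling. Each gene is given by the probe with the highest mean among those kept, and a level cannot be set against that of another gene. That percentile stood at a signal of 648 to 738 in P. gingivalis arrays and 696 to 764 in saline arrays, and 0 spots were saturated. All 8 slow fibre markers of soleus were well above background on all 8 arrays. The groups did differ in the number of probes well above background. It was 34853 to 35365 in P. gingivalis arrays and 30177 to 34076 in saline arrays, with no overlap. The part of this gap in the differences of dim probes was not tested. All arrays came from 1 slide and 1 scan, with the P. gingivalis arrays on one side of the slide and the saline arrays on the other, so group and slide side cannot be told apart. Directions follow the sample records. Each of the 8 sample columns of the authors' deposited table holds the values of the same-numbered array that the sample records place in the opposite group, and under that table's naming every direction below would turn round. In whole muscle, fewer cells of a type and less RNA per cell cannot be told apart.

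Ribosomal protein mRNA as a whole differed little between the groups. The median difference over the 81 genes was 0.010 on the log2 scale (P. gingivalis minus saline), against a median of -0.011 over all genes tested. With limma and Benjamini-Hochberg adjustment over 22221 genes, 0 of the 81 genes passed an adjusted p of 0.05, where 0.117% of all genes did. The smallest adjusted p among members was 0.0987, for Rpl3. At an unadjusted p under 0.05, limma picked 6 members as higher and 2 as lower, which is 9.88% of them, while 19.7% of all genes tested passed that mark (10.1% higher, 9.66% lower).

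Few members separated the groups completely. For 7 members every P. gingivalis array was above every saline array, and for 3 every one was below, which is 12.3% of members, where 13.4% of all genes did not overlap in one direction or the other (7.35% higher, 6.07% lower). In direction, 44 members (54.3%) were higher in P. gingivalis muscle and 37 lower, beside 47.7% of all genes higher. That split depended on the scaling, with 28 higher after quantile normalization and 78 higher after centring each array on its median, a step that moved the median of all genes to 0.14. The median of the members minus that of all genes was 0.021 as measured here and under median centring, and -0.036 after quantile normalization.

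**Figure D1:**
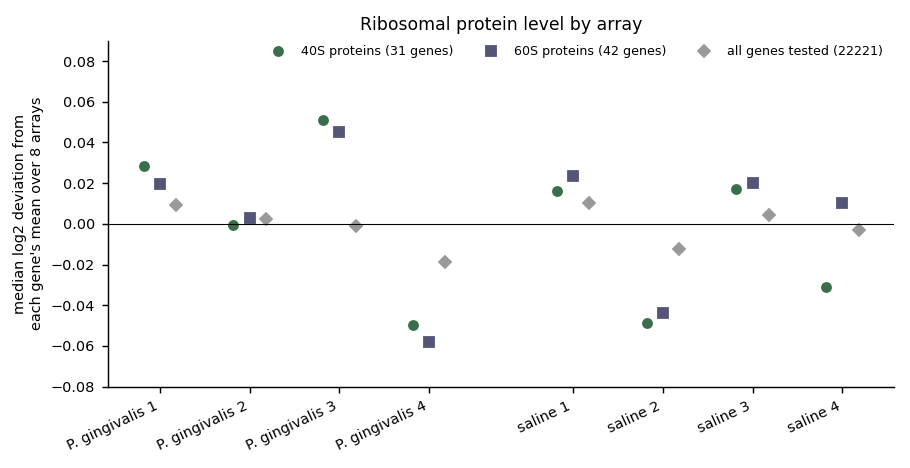
Median log2 deviation from each gene's mean over the 8 arrays, for 40S genes, 60S genes and all genes tested, in the 4 P. gingivalis arrays and the 4 saline arrays. The 40S and 60S medians lie near each other within most arrays, between -0.058 and 0.051, and arrays of both groups lie on both sides of 0.

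The medians of both subunits differed between arrays by more than between groups. The median deviation of the 31 40S genes from their own means was 0.028, -0.00041, 0.051 and -0.050 in P. gingivalis 1 to 4, against 0.016, -0.049, 0.017 and -0.031 in saline 1 to 4. For the 42 60S genes it was 0.019, 0.0029, 0.045 and -0.058 in P. gingivalis 1 to 4, against 0.023, -0.044, 0.020 and 0.010 in saline 1 to 4. The lowest P. gingivalis array was number 4 and the lowest saline array number 2 for both subunits, and the groups overlapped.

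The spread of these genes between arrays was small. The median SD within groups was 0.056 for the members and 0.14 for all genes tested, and the median size of a difference was 0.052 for members and 0.13 for all genes. For 76 of the 81 members (93.8%), the whole 95% interval of the difference lay within 1.25-fold in either direction. This held for 8774 (39.5%) of all genes. Both counts are for the scaling used here and were not made under the others. Median centring moved the median difference of the members to 0.16. The median width of the interval on either side was 0.13 for members. Small SEs were not particular to these genes. The median SE was 0.055 for members, and among the ribosomal proteins of mitochondria it was 0.053 for Mrpl11, 0.049 for Mrps14 and 0.10 for Mrpl50. Members are bright, and 65 of their kept probes are printed 10 times on each array, among 300 such probes. The SD between the 10 spots of 1 array had a median of 0.047, which gives a 10-spot mean an SE of 0.015, and the spot means differed between arrays of 1 group with an SD of 0.056. The spread between arrays was larger than that left between spots of 1 array.

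**Figure D2:**
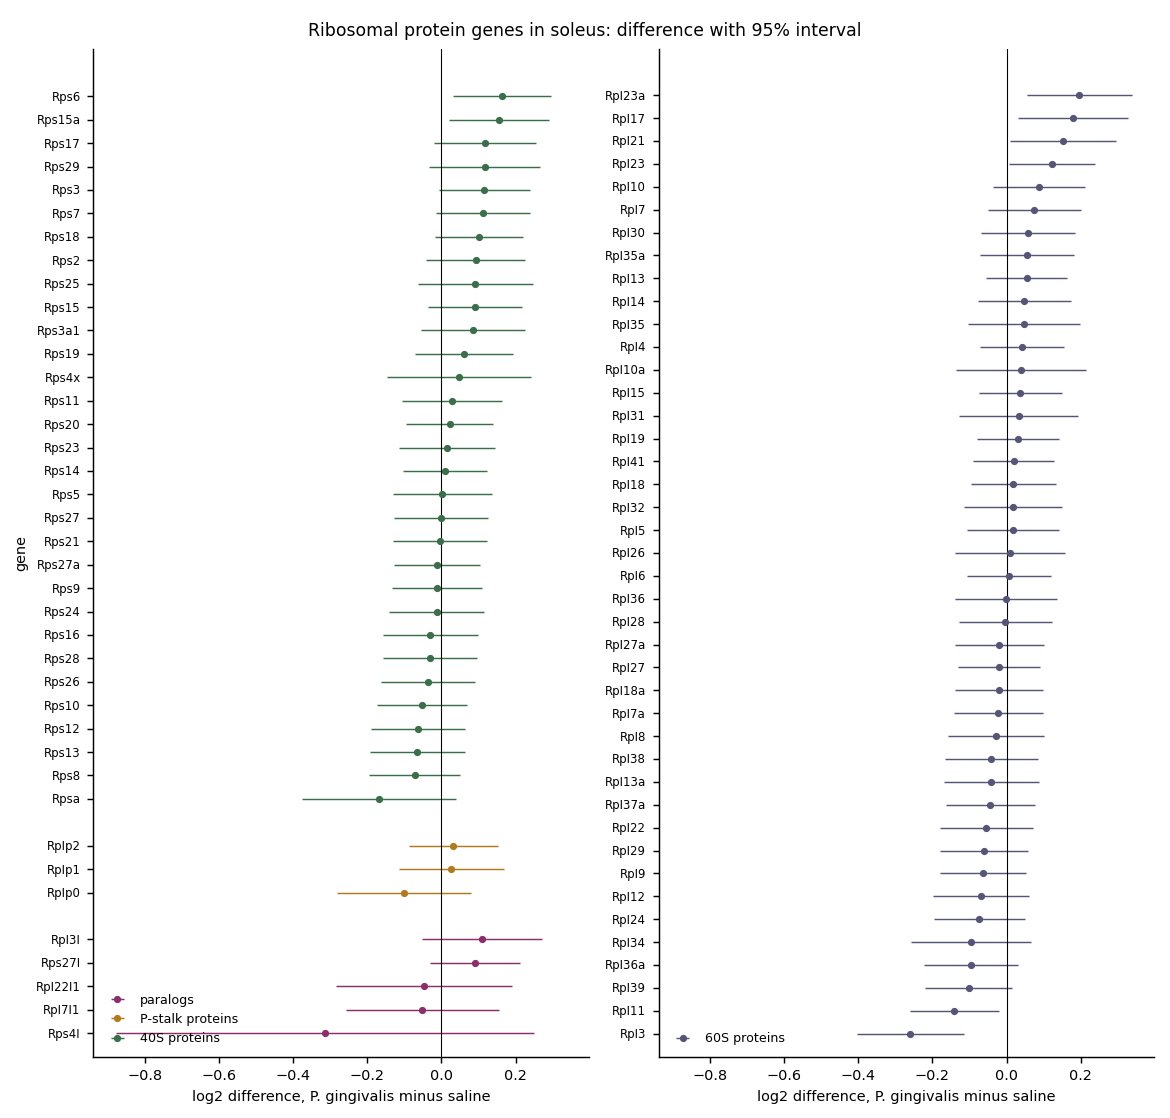
Log2 difference, P. gingivalis minus saline, with its 95% interval from limma for the 81 genes tested, grouped as 40S, stalk, paralog and 60S genes. Differences run from -0.31 for Rps4l, whose interval is the widest, to 0.20 for Rpl23a, and most intervals cross 0.

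Among the 31 genes of the 40S subunit, 18 were higher and 13 lower in P. gingivalis muscle, 0 passed the adjusted threshold in limma, and their median difference was 0.016. Counts by subunit are those of the scaling used here. Rps6, the subunit protein that S6 kinase phosphorylates, measured 6.08, 5.99, 6.12 and 6.01 in P. gingivalis arrays, against 5.97, 5.81, 5.87 and 5.89 in saline arrays. Its difference was 0.16 with an SE of 0.057 (adjusted p = 0.180, limma). All 4 P. gingivalis arrays lay above all 4 saline arrays, by a gap that was small beside the range within each group. The second Rps6 probe, also bright, differed by 0.011 with overlapping groups.

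Rps15a, a 40S protein whose gene begins with a TOP tract, measured 6.17, 6.19, 6.21 and 6.15 in P. gingivalis arrays, against 6.13, 5.92, 6.00 and 6.05 in saline arrays. Its difference was 0.16 with an SE of 0.059 (adjusted p = 0.207, limma), and the groups did not overlap. Rps7 and Rps3, named after their values were seen, were the other 40S genes whose groups did not overlap, with differences of 0.11 and 0.12, though the second Rps3 probe differed by -0.11. The other probes did not bear Rps15a out, since its bright probes differed by 0.16, 0.013 and -0.020 and its dim probe by 0.22.

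Rpsa, the laminin receptor that is also a 40S protein, had the largest negative difference of the subunit. It measured 6.63, 6.57, 6.55 and 6.37 in P. gingivalis arrays, against 6.79, 6.76, 6.76 and 6.49 in saline arrays. Its difference was -0.17 with an SE of 0.090 (adjusted p = 0.339, limma). The low value of saline 4 fell among the P. gingivalis arrays, and P. gingivalis 4 was lowest of all. The second Rpsa probe, also bright, differed by -0.11.

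The other named 40S genes lay near 0. Rps27a, which is made as a fusion with ubiquitin, differed by -0.011 (95% interval -0.13 to 0.11). Rps19, in humans the gene mutated most often in the red-cell disorder Diamond-Blackfan anaemia, differed by 0.060 (-0.071 to 0.19), and Rps20 by 0.022 (-0.096 to 0.14). Rps4x, the X-linked form of Rps4, differed by 0.048 (-0.15 to 0.24), and Rps9, a protein of early 40S assembly, by -0.012 (-0.13 to 0.11). Their P. gingivalis and saline arrays overlapped in each case.

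Among the 42 genes of the 60S subunit, 22 were higher and 20 lower, 0 passed the adjusted threshold in limma, and the median difference was 0.0083. Both ends of the ranking of core genes came from this subunit. Rpl23a, which sits at the exit of the tunnel through which new protein leaves, had the largest positive difference of all 81 genes. It measured 6.30, 6.37, 6.42 and 6.37 in P. gingivalis arrays, against 6.17, 6.05, 6.26 and 6.20 in saline arrays, and the groups did not overlap. The difference was 0.20 with an SE of 0.061 (adjusted p = 0.150, limma), a fold of 1.15. The second Rpl23a probe, also bright, differed by 0.19.

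Rpl17, also a protein of the tunnel exit, measured 5.51, 5.53, 5.67 and 5.58 in P. gingivalis arrays, against 5.36, 5.29, 5.47 and 5.45 in saline arrays. Its difference was 0.18 with an SE of 0.065 (adjusted p = 0.191, limma), and the groups did not overlap. Its other 2 probes differed by 0.014 and -0.057, so the 3 did not share a direction. Rpl21 differed by 0.15 and overlapped at 1 array, while Rpl23 differed by 0.12 with no overlap (adjusted p = 0.234 for both, limma). The second probe of Rpl21 differed by 0.012 and that of Rpl23 by -0.022.

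**Figure D3:**
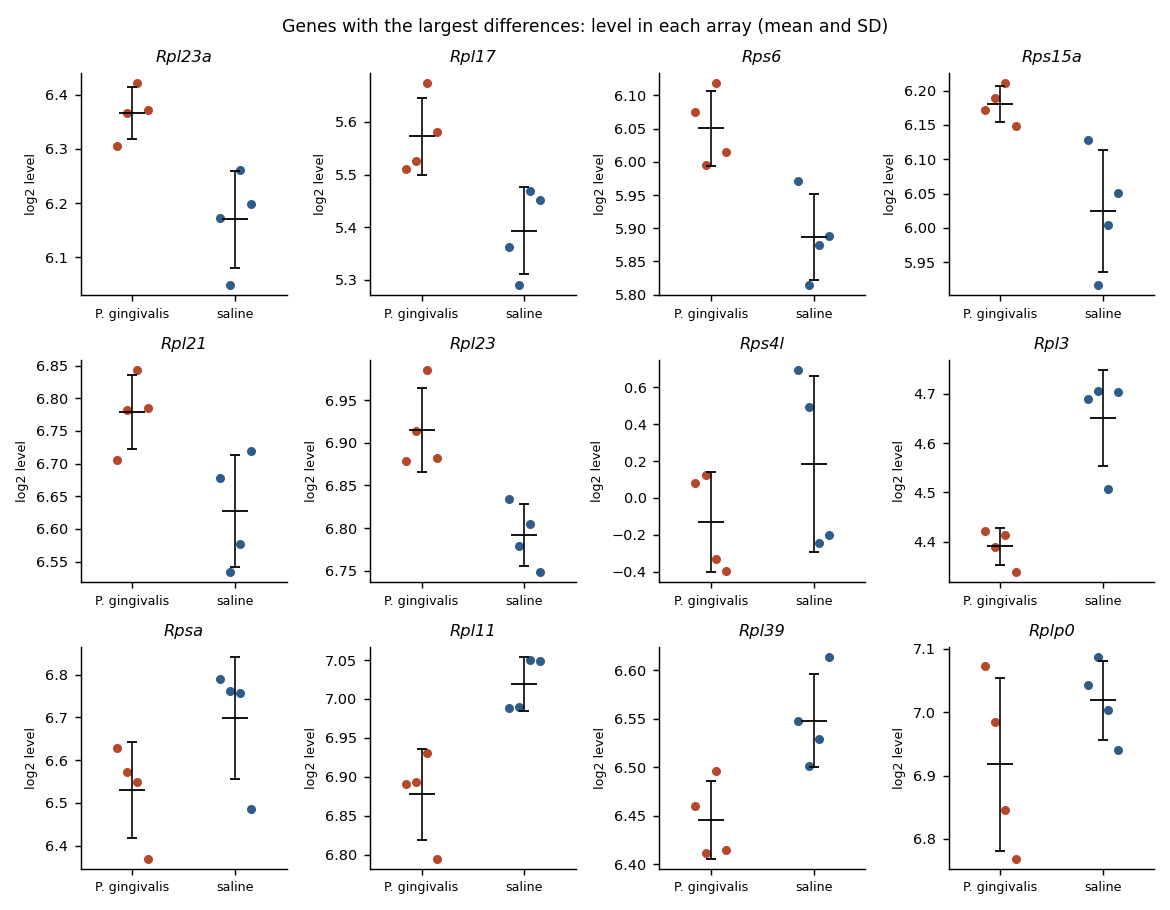
Log2 level in each array, P. gingivalis left and saline right, for the 6 genes with the largest positive and the 6 with the largest negative difference, with the mean and SD of each group (n = 4). Each panel has its own axis. Rpl23a, Rpl17, Rps6, Rps15a and Rpl23 do not overlap above saline, and Rpl3, Rpl11 and Rpl39 do not overlap below it.

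Rpl3, a core protein next to the peptidyl transferase centre, where amino acids are joined, was the member closest to the threshold. It measured 4.42, 4.39, 4.41 and 4.34 in P. gingivalis arrays, against 4.69, 4.71, 4.51 and 4.70 in saline arrays. The difference was -0.26 with an SE of 0.062, a 95% interval of -0.40 to -0.12 and an adjusted p of 0.0987 in limma. The 4 P. gingivalis arrays lay within 0.1 of each other and below every saline array, and saline 3 lay apart from the other saline arrays and towards the P. gingivalis ones. With a variance that follows the signal and a robust prior, the adjusted p of Rpl3 in limma was 0.0391, and without saline 3 it was 0.0805.

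The difference rested on 1 of 3 Rpl3 probes. The array's probes for Rpl3 and its single probe for Rpl3l are given 5′ to 3′ as in the file headers, with mm9 positions, and capitals mark the longest run shared by the brightest Rpl3 probe and the Rpl3l probe.
Rpl3, chr15:79908295-79908445, minus strand: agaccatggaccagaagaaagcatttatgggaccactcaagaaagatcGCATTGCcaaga
Rpl3, chr15:79908489-79908772, minus strand: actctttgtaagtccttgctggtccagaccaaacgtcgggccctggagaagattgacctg
Rpl3, chr15:79912877-79912936, minus strand: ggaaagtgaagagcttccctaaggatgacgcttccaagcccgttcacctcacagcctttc
Rpl3l, chr17:24872413-24872681, plus strand: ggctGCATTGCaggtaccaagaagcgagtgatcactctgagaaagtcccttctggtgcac
The first of these represents Rpl3 and differed by -0.26, while the second differed by -0.081 and the third by -0.058. The first, second and Rpl3l probes of 60 bases span 151, 284 and 269 bases of the genome, so each crosses at least 1 gap in the alignment. The longest run shared between the Rpl3l probe and the brightest Rpl3 probe is 7 bases.

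Rpl11, which with Rpl5 and 5S rRNA binds Mdm2 when ribosome assembly fails, measured 6.89, 6.89, 6.93 and 6.79 in P. gingivalis arrays, against 6.99, 6.99, 7.05 and 7.05 in saline arrays. Its difference was -0.14 with an SE of 0.052 (adjusted p = 0.195, limma), and the groups did not overlap. Its partner Rpl5 differed by 0.017 (95% interval -0.11 to 0.14), with overlapping groups. Rpl39, a small protein of the exit tunnel, differed by -0.10 with no overlap (adjusted p = 0.308, limma), but its 5 probes ran from -0.17 to 0.14. After median centring the differences of Rpl11 and Rpl39 were above 0, at 0.0072 and 0.046.

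The remaining named 60S genes overlapped between groups. Rpl10, which completes the 60S subunit at the end of its assembly, differed by 0.087 (95% interval -0.036 to 0.21), and by -0.053 under the rebuilt processing of the deposited table. Rpl13a, which in human cells is released to silence inflammatory mRNAs, differed by -0.041 (-0.17 to 0.087). Rpl38, required in mice for translation of Hox mRNAs, differed by -0.041 (-0.17 to 0.084), and Rpl41, the smallest protein of the ribosome, by 0.019 (-0.091 to 0.13). Rpl22 differed by -0.054 and Rpl7 by 0.075 (-0.18 to 0.071 and -0.050 to 0.20).

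The 3 stalk genes gave 2 differences above 0 and 1 below. Rplp0, the base of the stalk and a gene often used as a reference in PCR, measured 7.07, 6.99, 6.85 and 6.77 in P. gingivalis arrays, against 7.04, 7.09, 7.004 and 6.94 in saline arrays. The difference was -0.10 with an SE of 0.078 (adjusted p = 0.504, limma), the groups overlapped, and without P. gingivalis 4 it was -0.051. Rplp1 differed by 0.026 (95% interval -0.12 to 0.17) and Rplp2 by 0.033 (-0.087 to 0.15), but both were below 0 after quantile normalization. Rplp0 was above 0, at 0.048, after median centring.

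The paralogs are copies of core ribosomal protein genes with their own promoters, some used in few tissues. Of the 5 tested, 2 were higher and 3 lower, with a median difference of -0.047, and 0 passed the adjusted threshold in limma. Rpl3l measured 5.66, 5.73, 5.65 and 5.66 in P. gingivalis arrays, against 5.57, 5.47, 5.74 and 5.49 in saline arrays. Its difference was 0.11 with an SE of 0.070 (adjusted p = 0.425, limma), and saline 3 was the highest of all 8 arrays. Rps27l, a p53 target, measured 5.21, 5.10, 5.15 and 5.11 in P. gingivalis arrays, against 5.01, 5.01, 5.05 and 5.12 in saline arrays, a difference of 0.090 (adjusted p = 0.379, limma). Its groups overlapped through saline 4. The second Rps27l probe differed by 0.13.

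Rps4l, whose probe is annotated to a transcript that RefSeq numbers as non-coding, was the most variable member. It measured 0.08, 0.13, -0.33 and -0.40 in P. gingivalis arrays, against 0.69, 0.49, -0.24 and -0.20 in saline arrays. The difference of -0.31 had an SE of 0.24 (adjusted p = 0.504, limma), and was -0.14 without saline 1. Arrays 1 and 2 were high and arrays 3 and 4 low in both groups, so the groups overlapped. Rpl22l1 differed by -0.047 and Rpl7l1 by -0.052 (95% intervals -0.28 to 0.19 and -0.26 to 0.15).

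**Figure D4:**
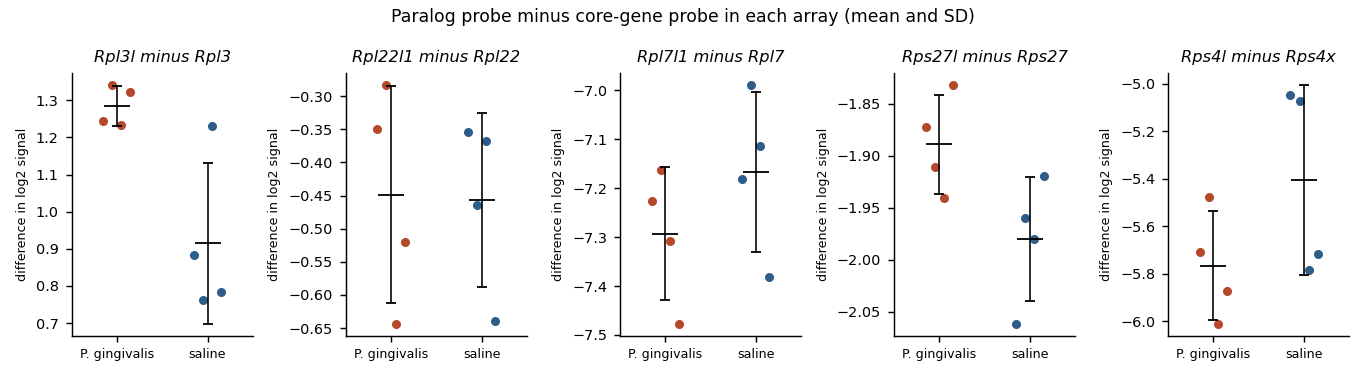
Log2 signal of the paralog's probe minus that of the core gene's probe in each array, P. gingivalis left and saline right, with the mean and SD of each group (n = 4), for 5 pairs. Only the change between groups can be read, since each pair sets different probes against each other, and Rpl3l minus Rpl3 is the 1 pair whose groups do not overlap.

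For 5 paralogs and their core genes, the difference between the probes was taken within each array, so that array-wide scaling drops out. Its level has no meaning, because the probes differ, but its change between groups does. Rpl3l minus Rpl3 was 1.24, 1.34, 1.23 and 1.32 in P. gingivalis arrays, against 0.88, 0.76, 1.23 and 0.78 in saline arrays. The balance was 0.37 higher in P. gingivalis muscle, a 1.29-fold change (1.28 ± 0.055 in P. gingivalis and 0.91 ± 0.22 in saline arrays, SD, n = 4 each). A two-sided exact permutation test gave p = 0.0286, the smallest that 70 assignments allow, and 0.143 after Benjamini-Hochberg adjustment over the 5 pairs.

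The groups of this pair touched, since saline 3 matched the lowest P. gingivalis array to 2 decimals. Leaving out 1 array, or saline 1 and P. gingivalis 3 together, gave changes from 0.32 to 0.47. With the second Rpl3 probe the change was 0.19 (exact permutation p = 0.143), and with the third it was 0.17 (exact p = 0.257), so the size depended on the Rpl3 probe. Saline 3 also had the lowest summed red cell markers of the 8 arrays, at 8.30 against 8.97 to 9.92 in the other saline arrays, and the lowest macrophage sum, at 2.194 against 2.997 to 3.336 in the other saline arrays. The part of either cell type in the result was not tested.

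For the other pairs the groups overlapped. Rps27l minus Rps27 was 0.091 higher in P. gingivalis muscle (exact permutation p = 0.0571, adjusted 0.143). Rps4l minus Rps4x changed by -0.36 (exact p = 0.229) and Rpl7l1 minus Rpl7 by -0.13 (exact p = 0.286), both 0.357 after adjustment. With 1 array left out the change for Rps4l ran from -0.24 to -0.49, and with the mean of each gene's kept probes it was -0.12. Rpl22l1 minus Rpl22 changed by 0.0077 (exact p = 0.886).

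**Figure D5:**
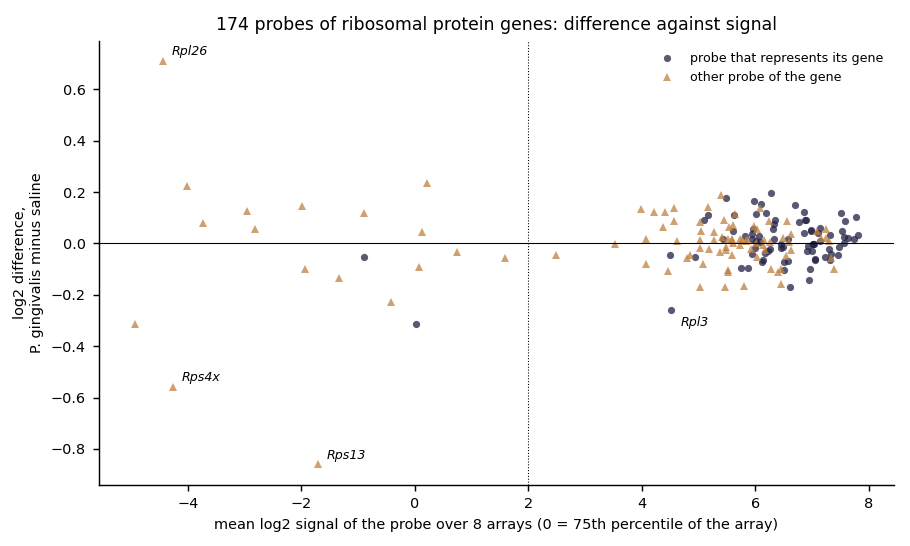
Log2 difference, P. gingivalis minus saline, of each of the 174 kept probes of ribosomal protein genes against its mean log2 signal over the 8 arrays, with probes that represent their gene as circles. The dotted line is at a mean of 2. Probes right of it lie between -0.26 and 0.20, and probes left of it spread from -0.86 to 0.71.

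Probes of the same gene often pointed in different directions, around differences near 0. Of 59 genes with at least 2 kept probes, 35 had probes of opposite sign, and 31 of 56 when only probes with a mean log2 signal of at least 2 were taken. Of those 154 brighter probes, 153 differed by less than 0.25, the exception being the Rpl3 probe. Of the 20 dimmer probes, 15 did.

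The largest probe differences came from dim probes that do not represent their gene. A Rps13 probe measured -2.61, -1.67, -1.89 and -2.38 in P. gingivalis arrays, against -0.80, -1.59, -1.39 and -1.33 in saline arrays. Its difference was -0.86 in a limma fit of all 33636 kept probes (adjusted p = 0.116), with no overlap, while the bright Rps13 probe differed by -0.065. A dim Rpl26 probe differed by 0.71 and a dim Rps4x probe by -0.56, where the probes that represent these genes differed by 0.010 and 0.048. Further genes with opposing probes were Rps9 (-0.31 to 0.12), Rpl39 (-0.17 to 0.14), Rpl11 (-0.14 to 0.13) and Rpl41 (-0.23 to 0.019). In that probe-level fit 0 member probes passed the adjusted threshold, where 0.169% of all kept probes did.

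Many member probes share sequence with other probes of the array. Of 174 kept member probes, 49, from 38 genes, shared a stretch of 25 bases with a probe of another name, among them predicted and pseudogene transcripts, and 24 of these represent their gene. The median difference was 0.0030 for the 49 and 0.014 for the others. By the file headers, 7 of 173 kept member probes with both positions were placed on a chromosome other than that of their gene in RefSeq, including the probes that represent Rps27 (chromosome 9, the gene on 3) and Rps29 (chromosome 2, the gene on 12). Values of such genes may include signal from near-identical copies.

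The tract shown above was also set beside the differences. The 13 tested genes with a tract at an annotated start had a median difference of 0.037 (range -0.052 to 0.16). The 47 tested genes with a promoter in the RefSeq table and no tract had -0.012 (range -0.17 to 0.12). Members with no promoter in that table are in neither set, among them Rps4l (-0.31), Rpl3 (-0.26) and Rpl23a (0.20). The part of the tract in the differences was not tested.

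Beside the ribosomal proteins, lists of other genes of the pathway also gave 0 calls in limma (0.117% of all genes). Among 40 translation factors 23 were higher, with a median of 0.021. Eef1a2, the elongation factor of mature muscle, measured 5.25, 5.31, 5.39 and 5.33 in P. gingivalis arrays, against 4.79, 4.90, 5.10 and 4.92 in saline arrays. The difference was 0.39 (adjusted p = 0.0711, limma), with no overlap. Eif4g2, a scaffold of cap-independent initiation, differed by 0.32 (adjusted p = 0.0672, limma), also with no overlap. Eif3a and Eif3d, parts of the initiation complex eIF3, differed by -0.25 and -0.18 (adjusted p = 0.229 and 0.154, limma).

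Of 48 genes for ribosome assembly and ribosomal RNA, 20 were higher and 28 lower, with a median of -0.025. Ubtf, which drives RNA polymerase I, measured 6.15, 6.23, 6.19 and 6.25 in P. gingivalis arrays, against 5.95, 5.83, 6.00 and 5.88 in saline arrays. Its difference was 0.29 (adjusted p = 0.0746, limma), with no overlap. Utp15, a small subunit processome gene, differed by 0.41 at a dim level (adjusted p = 0.307, limma), and by 0.27 without saline 3. Gar1, of the complexes that modify ribosomal RNA, and Heatr1, a factor of its transcription, differed by -0.18 and -0.17 (adjusted p = 0.208 and 0.259, limma).

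Of 23 genes of mTORC1 and control of TOP mRNAs, 15 were higher and 8 lower, with a median of 0.077. Castor1, an arginine sensor that restrains mTORC1, differed by 0.59 at a dim level (adjusted p = 0.127, limma), and Ddit4, another inhibitor of mTORC1, by 0.39 (adjusted p = 0.514). Mlst8, a subunit of mTORC1, differed by -0.11 and Larp4, which protects mRNA poly(A) tails, by -0.092 (adjusted p = 0.330 and 0.650, limma). The P. gingivalis and saline arrays overlapped for Castor1, Ddit4 and Larp4. Without saline 1 the difference was 0.15 for Ddit4 and -0.014 for Larp4.

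A short list of proteins on or near the cytosolic ribosome that the name rule leaves out was near 0 as well. Of its 5 genes 1 was higher, and the median was -0.056. Fau, made as a fusion with a ubiquitin-like domain, differed by -0.040, Rack1, a scaffold on the 40S subunit, by -0.056, Rpl36al by -0.10 and Rps19bp1, a nucleolar partner of Rps19 and not itself a ribosomal protein, by -0.068. Without P. gingivalis 4 the differences of Rpl36al and Rack1 were -0.036 and -0.014, and without P. gingivalis 1 that of Fau was -0.010. Of 13 genes of ribosome stress and quality control 6 were higher. There Cdkn1a, a target of p53, differed by 0.42, Rnf10, which ubiquitinates stalled 40S subunits, by 0.25, Pelo, which rescues stalled ribosomes, by -0.18 and Zfand2a by -0.18 (adjusted p = 0.165 to 0.520, limma). Without P. gingivalis 1 the difference was 0.15 for Cdkn1a and 0.091 for Rnf10.

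The 78 ribosomal proteins of mitochondria, a separate ribosome, gave 41 higher and 37 lower with a median of 0.0039. Mrps11 and Mrpl10 had the largest positive differences, 0.24 and 0.21 (adjusted p = 0.126 and 0.0859, limma), with no overlap. Mrpl2 and Mrps2 had the largest negative ones, -0.17 and -0.15 (adjusted p = 0.180 and 0.354, limma).

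Some lists of markers of fibres and other cells were not level between the groups. Others were closer to level, with median differences of -0.020 for T and B cells, -0.0040 for fibroblasts and 0.0081 for adipocytes. Schwann cell markers had a median of -0.16, and in all of these the sums of the groups overlapped. The 8 slow fibre markers were all higher, with a summed log2 level of 11.68 to 11.80 in P. gingivalis arrays, against 11.54 to 11.63 in saline arrays. The 8 fast fibre markers were also all higher, with sums of 10.997 to 11.406 in P. gingivalis arrays, against 10.88 to 11.16 in saline arrays. Endothelial sums were 5.21 to 5.40 in P. gingivalis arrays, against 5.58 to 5.69 in saline arrays, although 2 of the 6 markers were higher. Macrophage sums were 2.36 to 2.97 in P. gingivalis arrays, against 2.19 to 3.34 in saline arrays, with 1 of 6 markers higher and a median difference of -0.31. All 6 red cell markers were higher, and their sums were 9.39 to 10.04 in P. gingivalis arrays, against 8.30 to 9.92 in saline arrays. Neutrophil sums were 5.88 to 6.21 in P. gingivalis arrays, against 6.15 to 6.41 in saline arrays, with Ngp below background on all 8 arrays, and the 5 tested markers were all lower, with a median difference of -1.45. The part of these in the ribosomal protein values was not tested. Without saline 1 and P. gingivalis 3, the arrays with the lowest fast fibre sum of each group, 42 members were higher, and limma called 0 of 81 members and 0 of all 22221 genes.

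In the authors' deposited table, 0 of the 117 rows of 81 member genes had an adjusted p under 0.05, where 431 of its 28250 rows (1.53%) did. As that table names its columns, its log2 difference was above 0 in 70 of the 117 member rows, with a median of 0.018. Rpl3 stood at 0.11 (adjusted p = 0.380) and Rpl3l at -0.12 (adjusted p = 0.308) in the authors' deposited table, signs that are turned relative to the sample records. The largest value of a member row there was 0.69, for the accession of the dim Rps13 probe (adjusted p = 0.0976 in the authors' deposited table).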

How the data were processed

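Soleus RNA of 8 samples was measured on 1-colour Agilent arrays. The deposited spot intensity values came from Agilent Feature Extraction 11.0.1.1 per the file headers (11.1 per the submitters' processing notes), already background-subtracted, with probe positions on mm9. The log2 of the processed signal was taken minus that of the array's 75th percentile over non-control spots, outlier spots were left out, and spots of a probe were averaged. Of 56605 probes, 33636 were kept, well above background on at least 4 of 8 arrays and measured on all (outlier spots removed 239 on at least 1 array). A gene was its kept probe with the highest mean. Names came from RefSeq (GRCm38.p6), and 145 of 182 member probes matched by accession.

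The comparison used lmFit and eBayes of limma 3.58.1 (R 4.3.3), two-sided and with no covariate, with Benjamini-Hochberg adjustment over 22221 genes, after a test on simulated data. Pairs of paralogs used exact permutation tests over 70 assignments. The members, the lists and the rule for named genes were chosen with earlier results of these data known. The rule took the 6 largest differences each way, 26 genes set by role, the 6 genes whose probes opposed most, and 4 of each other list. Rps3, Rps7, Rps13, Rps18, Rps29, Rpl26 and Rack1 were named after their values were seen. Of the genes the rule named, 1 is not reported here. The tract search and the shared-sequence check were added after seeing the data.

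The authors' deposited table holds log2 values, log2 differences and p-values of unstated processing. Its values were rebuilt to within 1e-06 by normexp (offset 16), quantile normalization, removal of probes under 1.1 times the negative controls' 95th percentile and averaging per accession. The number of arrays limits precision. Alternatives covered background, scaling, filter, probe rule, block, variance model and arrays left out.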

Additional observations from a re-analysis of the deposited data

Results flagged for a closer look

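Each group of 4 arrays was examined for 1 array far from the others, for the levels of the named genes and the array medians. Of 82 groups 3 were picked out, and chance alone picks about 1 in 20. Rpl3 in saline 3 stood at 4.51 while the other saline arrays held 4.69 to 4.71. Rpl10 in saline 3 stood at 7.59, above 7.52 to 7.53 in the others. Rpsa in saline 4 stood at 6.49, below 6.76 to 6.79 in the others. Without saline 3 the Rpl3 difference was -0.31 in place of -0.26, and without saline 4 the Rpsa difference was -0.24 in place of -0.17, neither past the adjusted threshold in limma.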

How the results depend on the processing

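Calls among the 81 members stayed at 0 under normexp background correction, quantile normalization, stricter and no filters on dim probes, the mean of a gene's probes, array weights, saturated spots left out (of which there were 0) and the rebuilt processing of the deposited table, while these fits called from 0.0405% of all genes (mean of a gene's probes) to 14% (no filter). Median centring called 8, all higher (Rpl17, Rpl21, Rpl23, Rpl23a, Rps15a, Rps18, Rps27l and Rps6), with a member median of 0.16 and 78 members higher, where the median of all genes was 0.14 and 10.7% of all genes were called. A trended and robust variance called 1 member, Rpl3, with 2.55% of all genes, and a threshold of 0.10 also called 1, with 3.27% of all genes. Quantile normalization gave 28 members higher, and the rebuilt processing gave a median of -0.030. Leaving out each array in turn gave 0 calls among members each time, in fits that called only 2 to 6 of all genes (0.009% to 0.027%), with medians from -0.0026 to 0.028, and 39 to 54 members higher. The replicate numbers gave no clear pairing of the samples (correlations of deviations from -0.058 to 0.23). In replicates 1 and 4, however, the best partner was the array of the same number. A fit with the replicate number as block called 0 members and 0 of all genes, with a smallest adjusted p of 0.179 in limma. Of 31 named genes, 13 kept their sign in every setting, among them Rpl3, Rpl3l, Rpl23a, Rpl17 and Rps6. Of 620 values of named genes under alternatives, 565 stayed within 1 SD and on the same side of the threshold, 47 moved by more, and 8 passed it, 7 of them under median centring. Dim probes limit Rpl37, Rpl10l and Rpl39l, which have no usable value here.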
